A study of Mus musculus with 77 samples.

Results

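The let-7 family was measured as 10 mature miRNAs: let-7a, let-7b, let-7c, let-7d, let-7e, let-7f, let-7g and let-7i from the 5′ arm of their hairpins, let-7d-3p from the other arm of the let-7d hairpin, and let-7j. Members were chosen by name, with or without the suffix -1 or -2 that marks gene copies. They made up 13 of the 788 miRNA rows of the AGO2 data from the BNST (bed nucleus of the stria terminalis, part of the forebrain, where it regulates anxiety) and 9 of the 299 rows of the blood data, where let-7d-3p was not analysed. The family was taken up with the levels and limma differences of earlier fits to these data known, so that its counts and p-values below describe these fits and are not independent evidence. let-7d-3p and let-7j, added for their values in these data, are given without a p for this reason, as are sums and shares over the family.

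let-7 miRNAs are among the most conserved miRNAs of animals. They accumulate as cells leave the cell cycle and differentiate, are abundant in the adult brain and in blood, and repress genes of growth and proliferation. Argonaute 2 (AGO2) holds the mature strand in the silencing complex, and bases 2 to 8 of that strand, the seed, pair with the target mRNA. LIN28 proteins block the maturation of most let-7 precursors, and the lin28 mRNAs are in turn targets of let-7.

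The study exposed male mice of the inbred strains C57BL/6NCrl (B6, C57BL/6Crl in the labels) and DBA/2NCrl (D2, DBA/2Crl in the labels) to 10 days of chronic social defeat stress (CSDS), a daily confrontation with an aggressive mouse, and set them against undefeated controls of the same strain. A social avoidance test divided the defeated mice into susceptible and resilient ones. Tissue was taken 6 to 8 days after the last defeat, at an age of 8 weeks per the labels. miRNAs bound to AGO2 were sequenced from the BNST of B6 mice only, in pools of 3 mice (5 control, 5 resilient and 3 susceptible pools), and whole trunk blood was sequenced from 25 single mice, 5 in each of the groups B6 control, B6 resilient, B6 susceptible, D2 control and D2 susceptible. A pool averages its mice, the mice of a strain are genetically alike, and all were male. In such bulk samples, fewer cells of a type and less RNA per cell cannot be told apart.

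The sequences are shown first because most reads of the family differ from each other by very few bases. RefSeq (GRCm38.p6) held all 10 members. In the lines below, capitals mark the seed, and every strand is written from its 5′ end. The prefix mmu, for mouse, is left out elsewhere.
mmu-let-7a-5p: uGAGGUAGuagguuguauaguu
mmu-let-7b-5p: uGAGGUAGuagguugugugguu
mmu-let-7c-5p: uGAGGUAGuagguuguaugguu
mmu-let-7d-5p: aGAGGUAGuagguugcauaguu
mmu-let-7e-5p: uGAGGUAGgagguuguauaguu
mmu-let-7f-5p: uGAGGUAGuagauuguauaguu
mmu-let-7g-5p: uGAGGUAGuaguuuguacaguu
mmu-let-7i-5p: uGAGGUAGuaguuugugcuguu
mmu-let-7j: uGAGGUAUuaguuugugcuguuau
mmu-let-7d-3p: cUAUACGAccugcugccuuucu

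The first 8 strands shared the seed GAGGUAG, so they can pair with the same sites. With positions counted from 1 at the 5′ end, let-7a-5p differed from let-7c-5p by A19G, from let-7e-5p by U9G and from let-7f-5p by G12A, each a single base. A read with 1 sequencing error can therefore be counted for a neighbour. let-7j had another seed, GAGGUAU. Over the 22 bases that let-7i-5p and let-7j share in length, they differed by G8U, within the seed, and let-7j was longer by 2 bases at its 3′ end. let-7d-3p was unrelated in sequence to the others and mismatched let-7a-5p at 16 of 22 bases.

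The hairpins lay at several places of GRCm38, mostly inside longer transcripts of the GENCODE M21 annotation. Let-7a-1 (chr13:48538179-48538272), let-7f-1 (chr13:48537829-48537917) and let-7d (chr13:48536012-48536114), all on the minus strand, lay in exons of the long noncoding RNA gene 6720427I07Rik. let-7c-2 (chr15:85706603-85706697) and let-7b (chr15:85707319-85707403) lay in exons of Lncppara. let-7a-2 (chr9:41536716-41536811) was intronic in 3110039I08Rik, let-7c-1 (chr16:77599657-77599750) in Mir99ahg, let-7e (chr17:17830352-17830444) in Spaca6, let-7g (chr9:106178840-106178927) in Wdr82 and let-7f-2 (chrX:151912346-151912428) in Huwe1. let-7i (chr10:122985640-122985724, minus strand) overlapped an exon of the pseudogene D630033A02Rik, and the let-7j hairpin (chr3:140028249-140028370) lay in no annotated gene. The mature strands of let-7a, let-7c and let-7f each matched 2 places of the genome exactly, and every other member matched 1.

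Levels are given as log2 CPM, counts relative to the reads of the library on a log2 scale, where a step of 1 is a doubling, as the authors deposited them. The values could be taken back to whole reads, which ranged from 3173294 to 9404828 per BNST pool and from 6916739 to 10113657 per blood sample. For let-7c-5p, the lowest member in blood, these were still 367 to 1251 reads per mouse, so counting error was small beside the spread between mice. The BNST and the blood libraries were made with different kits, which favour different small RNAs, so levels are ordered within a tissue and not tested between them. Of the marker miRNAs of other cell types, the erythroid list, led by miR-451a in red cells, summed to 8.23 to 8.86 log2 CPM in the BNST pools and to 17.8 to 18.9 in blood. Neuronal markers were carried in the BNST by miR-128-3p (mean 14.55), whereas the neuronal markers miR-124-3p and miR-9-5p lay near the detection limit there (means -1.75 and 0.26), and neither was among the rows of blood.

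Of the BNST AGO2 reads, the family took 19.7% ± 0.518 in control pools (SD, n = 5), 17.2% ± 1.54 in resilient pools (n = 5) and 19.3% ± 2.27 in susceptible pools (n = 3). let-7e-5p was the highest member, at rank 3 of all 788 miRNAs with a mean of 16.17 log2 CPM, and provided 41.0% ± 0.638 of the family in control pools. let-7d-5p came next (rank 5, mean 15.25, 20.9% of the family), then let-7i-5p (rank 10, 14.53). let-7b-5p (rank 18, 13.85) and let-7g-5p (rank 19, 13.83) did not differ beyond their spread, because let-7b-5p was the higher one in 8 of 13 pools with a mean difference of 0.02.

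Below these stood the second let-7f row (let-7f-5p-2, rank 33, 12.97) and let-7d-3p (rank 42, 12.46), both in this order in 13 of 13 pools. The rows let-7c-5p-1 (10.87), let-7c-5p-2 (10.11), let-7f-5p-1 (9.96), let-7a-5p-1 (9.74) and let-7a-5p-2 (8.77) followed. Of the neighbours among these, let-7c-5p-2 and let-7f-5p-1 kept their order in 11 of 13 pools and let-7f-5p-1 and let-7a-5p-1 in 12 of 13, as did let-7a-5p-2 and let-7j. let-7j was the lowest member at rank 170, with control pools at 7.91, 8.08, 7.94, 8.48 and 8.17, resilient pools at 8.18, 7.95, 8.32, 8.14 and 8.32, and susceptible pools at 7.97, 8.09 and 7.93. The groups of let-7j overlapped throughout.

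**Figure D1:**
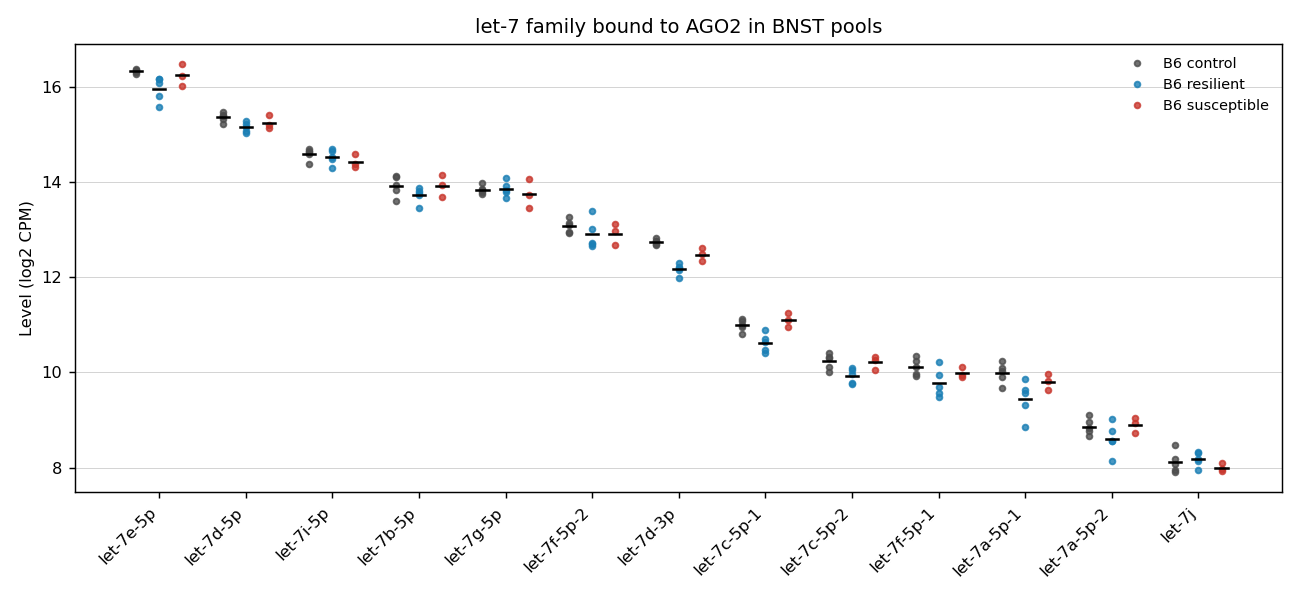
Level of each let-7 row bound to AGO2 in the BNST (log2 CPM, vertical axis), ordered by mean level, with 1 point per pool for B6 control (n = 5), resilient (n = 5) and susceptible pools (n = 3) and a bar at each group mean. let-7e-5p stood highest in every pool, and the resilient pools of let-7d-3p and let-7e-5p lay below all control pools.

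The copy rows need care, and so do the ranks and shares above. let-7a, let-7c and let-7f match 2 places of the genome, and whether the counting kept all such reads is not given. The ranks of these members, and all shares of the family and of the reads, therefore hold for the deposited counts only. The rows with suffix -1 and -2 of let-7a, let-7c and let-7f have the same mature sequence, so a read cannot be traced to either gene, and how the counting split such reads is not given in the sources used here. let-7f-5p-2 stood above let-7f-5p-1 by 3.01 log2 units on average, let-7a-5p-1 above let-7a-5p-2 by 0.96 and let-7c-5p-1 above let-7c-5p-2 by 0.76, each in 13 of 13 pools.

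In blood the order was another one. The family took 19.1% of reads in B6 controls, 21.8% in B6 resilient, 20.1% in B6 susceptible, 24.6% in D2 control and 25.6% in D2 susceptible mice, with SDs of 1.74 to 4.68. let-7i-5p stood at rank 2 of all 299 miRNAs with a mean of 16.66 log2 CPM over 25 mice, and let-7g-5p at rank 4 with 16.36. let-7i-5p was the higher of the pair in 25 of 25 mice. Between them they provided most of the family in B6 controls, 47.2% ± 2.62 and 39.8% ± 1.62 (SD, n = 5), and let-7d-5p (rank 11, 14.54) provided 10.3%.

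let-7b-5p (rank 19, 11.84) and let-7f-5p (rank 22, 11.12) followed in that order in 25 of 25 mice. The 4 lowest members were let-7j (rank 49, 7.57), let-7a-5p (rank 52, 7.46), let-7e-5p (rank 61, 6.97) and let-7c-5p (rank 70, 6.57), and neighbours among these kept their order in 19 or 20 of 25 mice. let-7e-5p, the leading member of the BNST, thus provided 0.0530% of the family in the blood of B6 controls. As in the BNST, ranks and shares hold for the deposited counts only, because the counting of let-7a, let-7c and let-7f reads is not given. The seed relative miR-98-5p, which is not one of the members, had a mean of 13.07 in blood and 11.34 in the BNST.

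**Figure D2:**
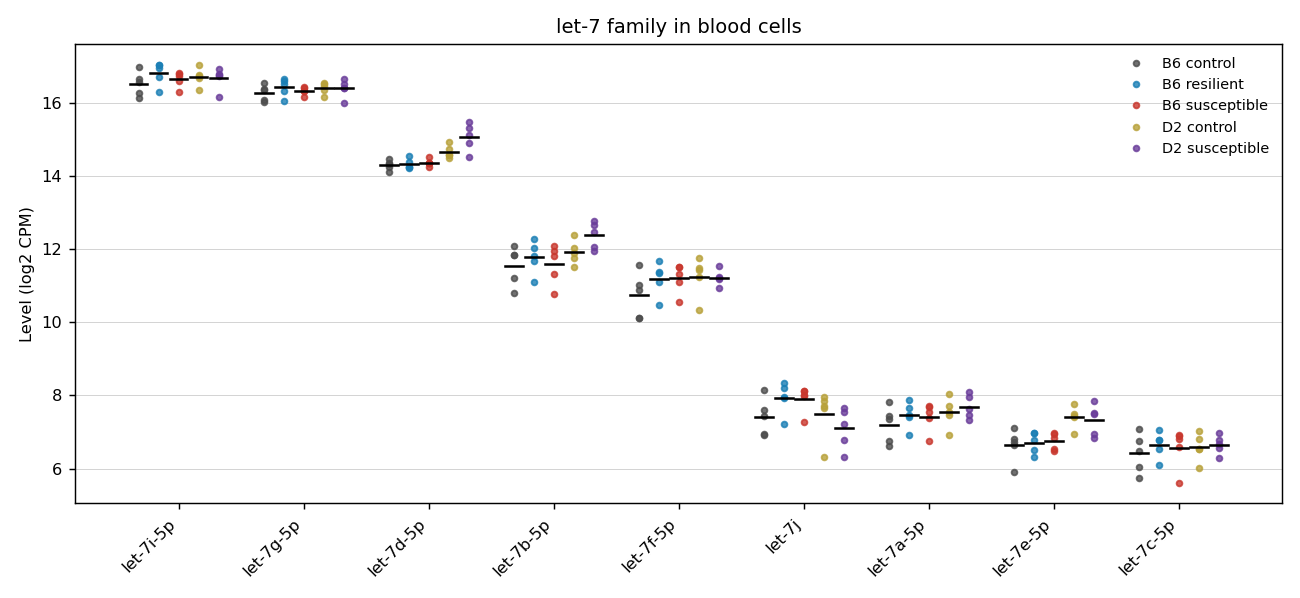
Level of each let-7 member in blood (log2 CPM, vertical axis), ordered by mean level, with 1 point per mouse (n = 5 per group) and a bar at each group mean. let-7i-5p and let-7g-5p stood near 16 to 17, whereas let-7j, let-7a-5p, let-7e-5p and let-7c-5p lay between 5.62 and 8.33.

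Members moved together between pools and mice to different degrees. After group means were subtracted, let-7a-5p and let-7c-5p had a Pearson r of 0.969 across the 25 blood samples and let-7g-5p and let-7i-5p of 0.927, whereas let-7e-5p had an r of -0.094 with let-7a-5p and of -0.337 with let-7g-5p. In the 13 BNST pools, both let-7f rows had an r of 0.915, and let-7d-5p and let-7d-3p, which come from the same hairpin, had an r of -0.426. All values of a sample share its library and scaling, and no test was made. The miRNAs most like the family mean by the same measure were miR-148b-3p (r = 0.787), miR-98-5p (0.785) and miR-329-3p (0.772) in the BNST, and miR-423-5p (0.834), miR-98-5p (0.825) and miR-3064-5p (0.793) in blood.

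The first comparison in the BNST asked how AGO2-bound miRNAs of mice that stayed resilient differed from those of undefeated mice. A miRNA was called differentially expressed (DE) in limma when its unadjusted p was under 0.05 and its fold change 1.2 or more, the thresholds of the study, which is a difference of 0.263 on the log2 scale. In resilient pools 6 of 13 let-7 rows were lower by this call and 0 were higher, and 11 of 13 differences were below 0. Of all 788 miRNAs, 9.52% were called in this comparison, and 5.58% were called lower. The 13 rows are not independent, because let-7a, let-7c and let-7f are each counted by both copy rows. Both let-7c rows are among the 6, as is let-7d-3p, which was added for its values. The median of the 13 differences was -0.25, against -0.01 over all miRNAs.

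let-7e-5p, the most abundant member, stood at 16.37, 16.36, 16.32, 16.34 and 16.28 log2 CPM in control pools. The resilient pools read 15.58, 16.16, 15.81, 16.08 and 16.16, and the susceptible pools 16.02, 16.23 and 16.47. All resilient pools lay below all control pools, and the susceptible pools spread across both groups. The level of let-7e-5p fell by 0.37 (log2) in the resilient group (SE 0.12, adjusted p = 0.257, limma). Quantile normalization brought the difference to -0.26, short of the fold limit.

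let-7a-5p-1 read 9.67, 10.09, 10.03, 10.25 and 9.90 in control pools, 8.86, 9.56, 9.31, 9.62 and 9.87 in resilient pools and 9.63, 9.81 and 9.97 in susceptible pools. The resilient pools were lower except for pool 5, which lay within the controls, and the row fell by 0.54 on the log2 scale (SE 0.15, adjusted p = 0.169, limma). The second row of the same sequence, let-7a-5p-2, had a difference of -0.25 (SE 0.14) and was not called, so that the call applied to one of both copy rows.

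let-7c-5p-1 read 10.81, 11.09, 10.94, 11.13 and 11.00 in control pools, 10.46, 10.65, 10.41, 10.69 and 10.89 in resilient pools and 10.95, 11.09 and 11.25 in susceptible pools. Of the resilient pools, 4 of 5 lay below every control pool, and the row fell by 0.38 on the log2 scale (SE 0.10, adjusted p = 0.169, limma). let-7c-5p-2 read 10.01, 10.32, 10.31, 10.41 and 10.12 in control pools, 9.75, 10.04, 9.78, 9.96 and 10.10 in resilient pools and 10.04, 10.26 and 10.32 in susceptible pools. Resilient and control pools overlapped in this row. It fell by 0.31 (SE 0.10, adjusted p = 0.281, limma), a difference that was -0.26 without control pool 4 and then missed the fold limit, as it did after quantile normalization (-0.25).

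let-7f-5p-1 read 9.96, 10.12, 9.92, 10.34 and 10.24 in control pools, 9.48, 9.56, 9.69, 9.94 and 10.21 in resilient pools and 9.91, 9.94 and 10.10 in susceptible pools. The row fell by 0.34 (log2) in the resilient group (SE 0.13, adjusted p = 0.303, limma), and the groups overlapped. Without resilient pool 1 the difference was -0.27 and no longer called. The more abundant let-7f-5p-2 had a difference of -0.18 (SE 0.13) and was not called.

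The remaining members were not called. let-7d-5p read 15.46, 15.39, 15.23, 15.33 and 15.40 in control pools and 15.15, 15.07, 15.04, 15.22 and 15.29 in resilient pools, where 4 of 5 lay below every control pool, and its difference of -0.21 (SE 0.09, adjusted p = 0.325, limma) did not reach the fold limit. The differences of let-7b-5p (-0.19), let-7i-5p (-0.06), let-7g-5p (0.02) and let-7j (0.07) had standard errors of 0.10 to 0.12.

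let-7d-3p separated the groups most clearly. It read 12.67, 12.77, 12.82, 12.69 and 12.75 in control pools. The resilient pools read 11.99, 12.15, 12.22, 12.29 and 12.19, and the susceptible pools 12.61, 12.48 and 12.34. All resilient and all susceptible pools lay below all control pools, and all susceptible pools lay above all resilient pools. The difference of resilient from control pools was -0.57 (SE 0.08), that of susceptible from control pools -0.26 (SE 0.10), just short of the fold limit, and that of susceptible from resilient pools 0.31 (SE 0.10). let-7e-5p and let-7d-3p were the 2 of 13 rows without overlap between resilient and control pools, a state found in 3.17% of all miRNAs. Between susceptible and control pools it was let-7d-3p, against 3.05% of all miRNAs. Because let-7d-3p was added for its values in these data, its separation is a description, and these shares are no test of it.

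**Figure D3:**
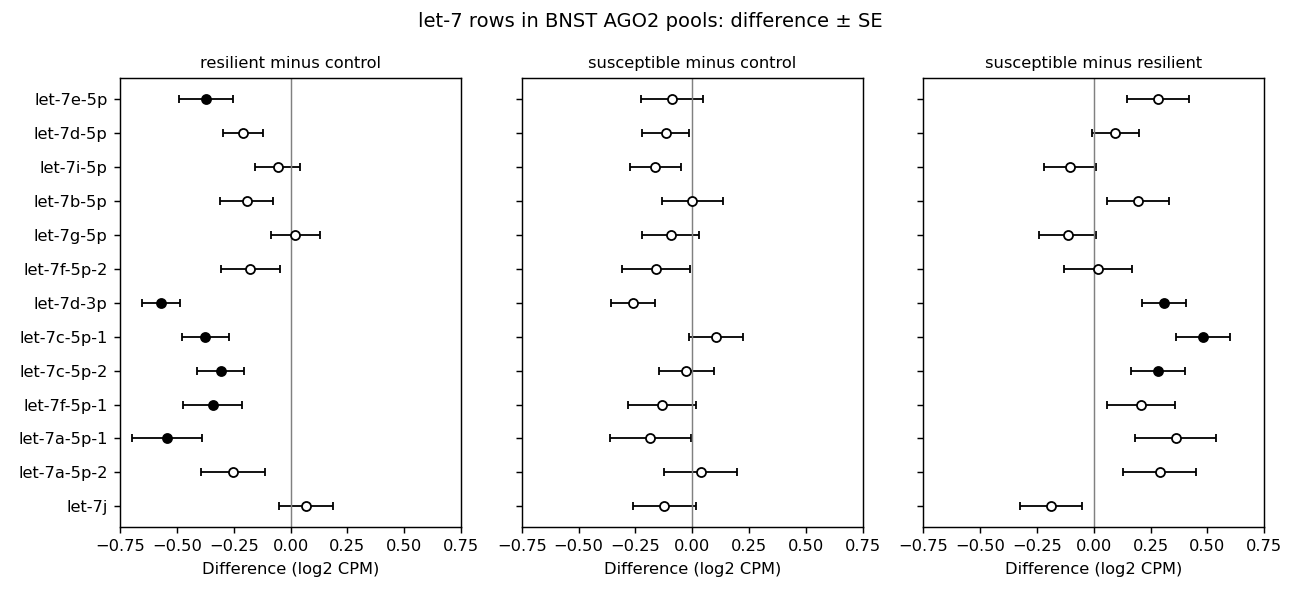
Difference in log2 CPM of each let-7 row between groups of BNST AGO2 pools (horizontal axis, bars are ± SE from limma), with rows ordered by mean level and filled points for rows called at p under 0.05 and a fold of at least 1.2. In the left panel 11 of 13 points lay left of 0, with let-7d-3p at -0.57 and let-7a-5p-1 at -0.54 farthest.

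let-7d-5p and let-7d-3p come from the same hairpin, so their ratio was taken within each pool. Subtracting let-7d-5p from let-7d-3p gave -2.80, -2.62, -2.41, -2.64 and -2.65 in control pools, -3.16, -2.92, -2.82, -2.92 and -3.09 in resilient pools and -2.52, -2.71 and -3.08 in susceptible pools. Every resilient pool lay below every control pool, and the susceptible pools spread across both. On average the 3p strand stood at 16.2% of the 5p strand in control, 12.6% in resilient and 14.7% in susceptible pools. This measure is free of the scaling between libraries. Because let-7d-3p was added for its values in these data, the ratio is a description as well. The opposite arms of other hairpins stood far lower in control pools, at 0.136% for let-7e, 0.463% for let-7b and 0.0474% for let-7i, and the arm of miR-98 stood at 3.26%. The means of some of their ratios differed by as much or more between control and resilient pools: -9.53 and -9.11 for let-7e, -11.04 and -11.50 for let-7i and -7.09 and -6.54 for let-7f-1. Resilient and control pools overlapped in each of these, as they did for let-7b, let-7c-1, let-7f-2, let-7g and miR-98.

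**Figure D4:**
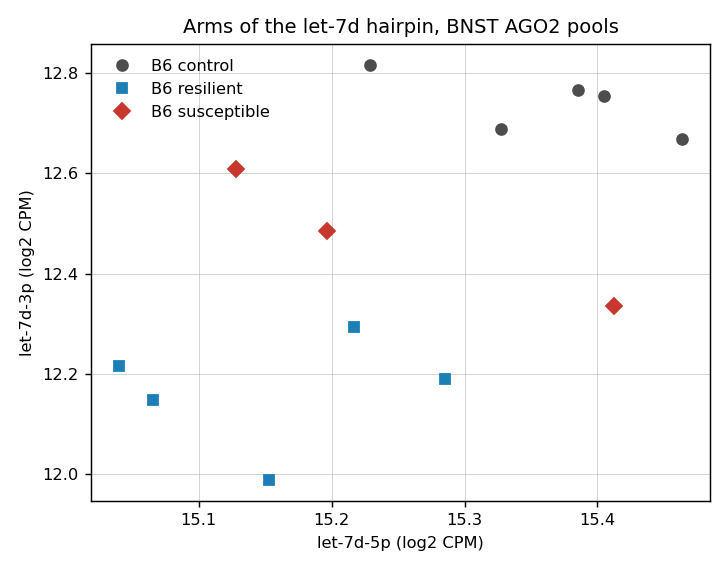
Level of let-7d-3p (vertical axis, log2 CPM) against let-7d-5p (horizontal axis, log2 CPM) in BNST AGO2 pools, 1 point per pool. The 5 control pools lie at or above 12.67 on the vertical axis and the 5 resilient pools at or below 12.29, while the groups overlap on the horizontal axis.

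Summed over the family, the level was 17.67, 17.63, 17.57, 17.64 and 17.58 log2 CPM in control pools, 17.18, 17.40, 17.29, 17.45 and 17.55 in resilient pools and 17.34, 17.49 and 17.71 in susceptible pools. All resilient pools lay below all control pools, and susceptible pools overlapped both groups. The difference of resilient from control pools was -0.25 (SE 0.066), or -0.20 when the sum was taken as a share of the reads, and it was -0.24 for the members of the shared seed alone. The summed neuronal markers moved in the same direction, from 14.81 in control to 14.54 in resilient pools (4 of 5 names measured, pools between 14.29 and 15.05), and so did the list of choroid plexus and ependyma (5 of 5 names, led by miR-204-5p), from 14.58 in control to 14.27 in resilient and 13.89 in susceptible pools (pools between 13.48 and 15.17). The other lists went both ways from control to resilient pools. That of oligodendrocytes rose from 11.32 to 11.52 and the erythroid list from 8.34 to 8.55. The sum of the list of leukocytes and platelets fell from 12.49 to 12.35, led by miR-150-5p (mean 11.81, difference -0.33). Every other name of these 7 rose, by 0.15 (miR-142a-5p) to 0.79 (miR-223-3p). In the erythroid list miR-486a-5p (-0.13) and miR-486b-5p (-0.31) fell. In the list of choroid plexus and ependyma miR-449a-5p (0.56) and miR-211-5p (0.16) rose, as did the row miR-128-3p-2 (0.06) of the neuronal list. The part of these lists in the results was not tested.

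Against controls, susceptible pools had 0 of 13 let-7 rows called by limma, and of the rows given with a p, 0 had an unadjusted p under 0.05. Of all 788 miRNAs, 4.70% were called. The differences ranged from -0.26 for let-7d-3p to 0.10 for let-7c-5p-1, with 10 of 13 below 0 and a median of -0.12 (all miRNAs -0.01). The family sum differed by -0.10 (SE 0.11), by -0.20 without susceptible pool 4 and by -0.02 without susceptible pool 1. Without control pool 1 or 4, or without susceptible pool 1 or 2, 1 row was called. This comparison and the previous one share the control pools. Of the miRNAs that share a cluster with let-7 genes, miR-99b-5p (-0.48, SE 0.14) and miR-125a-5p (-0.34, SE 0.10), both neighbours of let-7e, and miR-99a-5p (-0.43, SE 0.19), a neighbour of let-7c-1, were called lower in susceptible pools, with adjusted p-values of 0.602, 0.602 and 0.884 in limma. let-7e-5p differed by -0.09 (SE 0.14) there. In resilient pools, where let-7e-5p fell by 0.37, these neighbours were below controls as well but not called. miR-125a-5p differed by -0.26 (SE 0.09, adjusted p = 0.27, limma), just short of the fold limit. miR-99b-5p differed by -0.23 (SE 0.12) and miR-99a-5p by -0.14 (SE 0.17).

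Between the defeated groups, 3 of 13 rows were higher in susceptible than in resilient pools and 0 were lower, where 3.93% of all miRNAs were called and 2.03% were called higher. These rows were both copy rows of let-7c, which have the same sequence, and let-7d-3p, which was added for its values. let-7c-5p-1 rose by 0.48 (SE 0.12, adjusted p = 0.302, limma), with all 3 susceptible pools above all 5 resilient pools. This state, shared by let-7d-3p, was found in 2.79% of all miRNAs in either direction. let-7c-5p-2 rose by 0.28 (SE 0.12, adjusted p = 0.983, limma) and lost its call without resilient pool 1 or 3 or susceptible pool 2 or 4, at differences of 0.22 to 0.26. let-7d-3p, with a difference of 0.31, was the other row, at 0.24 without susceptible pool 1. Of the 13 differences 10 were above 0, with a median of 0.21 (all miRNAs -0.02). The count of rows called was 7 without resilient pool 5 and 5 without resilient pool 4 or susceptible pool 1, against the lowest of 2 without resilient pool 1 or 3 or susceptible pool 2. The family sum differed by 0.14 (SE 0.13), and by 0.04 without susceptible pool 4, 0.09 without resilient pool 1 and 0.23 without susceptible pool 1. Of the opposite arms, let-7f-1-3p, at a mean near 3 log2 CPM, was called lower in susceptible than in resilient pools (-0.95, SE 0.43, adjusted p = 0.983, limma). miR-98-5p was called in none of the comparisons of either tissue.

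The blood of D2 mice carries a conflict that precedes its results. For 2 of the 10 D2 mice the group in the label is not the one in the name of the column: the label calls D2 control mouse 2 a control and its column is named for a susceptible mouse, and for D2 susceptible mouse 2 it is the reverse. The same mice conflict in the blood mRNA data. In the sample titles, controls had higher mouse numbers than defeated mice under every other title prefix. Under the prefix of the conflicting mice this held by the column names but not by the labels. Which grouping is right was not settled. Values of members are given by the labels first, and for part of them by the column names and without both mice. Those of other miRNAs, marker sums and single mRNAs are given by the labels only.

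In B6 mice, 0 of 9 members were called in resilient mice against controls (4.35% of all 299 miRNAs called), 0 in susceptible mice against controls (4.01%) and 0 in susceptible against resilient mice (3.01%). No member had an unadjusted p under 0.05 in limma in any of them. All 9 differences lay above 0 in both comparisons with the controls, which share the same control mice, with medians of 0.23 in resilient and 0.13 in susceptible mice (all miRNAs -0.01 and 0.06). The largest were those of let-7j (0.52, SE 0.31, and 0.49, SE 0.31) and let-7f-5p (0.45, SE 0.28, and 0.46, SE 0.28). let-7i-5p read 16.55, 16.11, 16.27, 16.65 and 16.96 in B6 controls, 16.71, 17.03, 16.94, 17.01 and 16.30 in resilient and 16.29, 16.59, 16.72, 16.82 and 16.77 in susceptible mice, and the groups overlapped. let-7c-5p, the lowest member, ranged from 5.74 to 7.08 in controls, from 6.10 to 7.05 in resilient and from 5.62 to 6.91 in susceptible mice. Without control mouse 5 or resilient mouse 5, 3 members were called in resilient mice, and without control mouse 5 or susceptible mouse 1, 2 and 1 members in susceptible mice. The family sums differed from controls by 0.21 (SE 0.17) and 0.09 (SE 0.14). Without 1 mouse at a time they ranged from 0.13 (without control mouse 2) to 0.32 (without resilient mouse 5) and from 0.01 (without control mouse 2) to 0.18 (without control mouse 5). The summed leukocyte and platelet markers stood at 12.71 in B6 controls, 12.42 in resilient and 12.38 in susceptible mice (4 of 7 names measured, mice between 11.78 and 13.14), and their part in the results was not tested.

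In D2 susceptible mice against D2 controls, 1 of 9 members was called, where 8.70% of all miRNAs were. let-7d-5p read 14.48, 14.57, 14.57, 14.72 and 14.93 in D2 controls and 14.52, 14.89, 15.46, 15.12 and 15.30 in D2 susceptible mice. Of the susceptible mice, 3 of 5 lay above every control. The level rose by 0.40 (SE 0.14, adjusted p = 0.315, limma). By the column names the difference was 0.28 (SE 0.15, adjusted p = 0.395, limma) and no longer called, and without both mice it was 0.42 (SE 0.15, adjusted p = 0.241, limma). In B6 mice the same difference was 0.06 (SE 0.14), and the change of D2 mice exceeded that of B6 mice by 0.34 (SE 0.19, adjusted p = 0.918, limma interaction term), which did not pass. Of all miRNAs 4.35% were called in this interaction, and 0 members by limma, with 0 at an unadjusted p under 0.05. This count was 1 without B6 control mouse 5, B6 susceptible mouse 1, D2 control mouse 2 or 5 or D2 susceptible mouse 2, and 2 without D2 susceptible mouse 1. Within D2 mice, 2 members were called without D2 control mouse 2 or 5. let-7b-5p, at 11.50 to 12.37 in D2 controls and 11.95 to 12.77 in D2 susceptible mice, had a difference of 0.47 (SE 0.27, adjusted p = 0.612, limma). The family sum differed by 0.04 (SE 0.12) by the labels, by -0.09 by the column names and by -0.03 without both mice, without D2 control mouse 2 alone (-0.0304) and without D2 susceptible mouse 3 alone (-0.0248). The summed leukocyte and platelet markers stood at 11.76 in D2 control and 11.31 in D2 susceptible mice (4 of 7 names measured, mice between 10.48 and 12.21), and their part in the results was not tested.

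let-7j, the strand with the altered seed, depended most on the conflict. It was added for its values in these data, so its separations are descriptions, and the shares beside them are no test. It read 7.96, 6.30, 7.71, 7.85 and 7.65 in D2 controls and 7.56, 7.67, 6.79, 7.22 and 6.32 in D2 susceptible mice. The lowest control value, 6.30, and the highest susceptible value, 7.67, belonged to the mice whose column names disagree with the labels. The difference was -0.38 (SE 0.31) by the labels (-0.68 without D2 control mouse 2 alone and -0.18 without D2 susceptible mouse 5 alone), -0.93 (SE 0.26) by the column names, where all 5 susceptible mice lay below all 5 controls (groups did not overlap for 2.68% of all miRNAs), and -0.82 (SE 0.28) without both mice, again without overlap (4.35%). In B6 susceptible mice it was 0.49 (SE 0.31), so that the change of D2 minus that of B6 mice was -0.87 (SE 0.43) by the labels, -1.42 (SE 0.36) by the column names and -1.31 without both mice. let-7f-5p, which shares its libraries, had -0.48 (SE 0.39, adjusted p = 0.918, limma) for the same difference of changes by the labels and -0.83 (SE 0.37, adjusted p = 0.692, limma) by the column names.

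Set against let-7i-5p, from which it differs by G8U over the shared length, let-7j stood at 1.17% in the BNST (13 pools, difference between -6.71 and -6.22) and at 0.183% in blood. A let-7i-5p read with an error at that base could be counted for let-7j, and how many were was not tested. With group means subtracted, both rows had a Pearson r of 0.841 in blood and 0.611 in the BNST. In blood the difference of let-7j from let-7i-5p was -9.11, -9.20, -9.33, -9.06 and -8.83 in B6 controls, -8.78, -8.83, -8.98, -8.68 and -9.09 in B6 resilient mice, and -9.03, -8.58, -8.59, -8.71 and -8.80 in B6 susceptible mice. B6 groups overlapped. It was -9.06, -10.04, -9.03, -8.82 and -9.12 in D2 controls and -9.18, -9.07, -10.12, -9.56 and -9.84 in D2 susceptible mice. With the column names, the 5 D2 susceptible mice ranged from -10.12 to -9.18 and the 5 D2 controls from -9.12 to -8.82, without overlap. This is a description, because let-7j was added for its values. The difference of let-7j from let-7i-5p is a ratio within a library. It does not depend on the scaling between libraries, and it varied by more than 1 log2 unit between mice, while let-7g-5p kept within -0.57 and -0.09 of let-7i-5p.

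**Figure D5:**
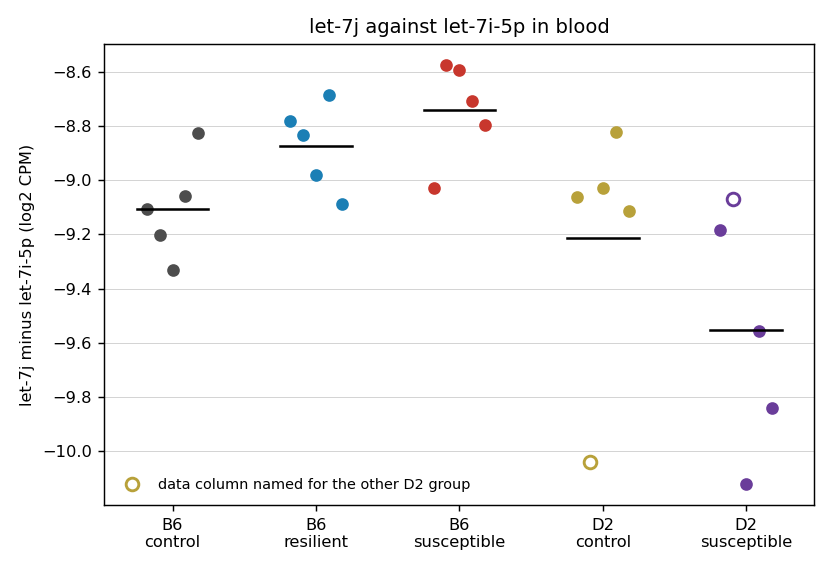
Difference of let-7j from let-7i-5p in log2 CPM (vertical axis) in blood, 1 point per mouse (n = 5 per group), with a bar at the mean of the labelled group. Open points are the 2 D2 mice whose data column is named for the other group: the open D2 control point lies at -10.04 and the open D2 susceptible point at -9.07.

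Between undefeated D2 and undefeated B6 mice, 2 of 9 members were called, both higher in D2. This was near the share of all miRNAs, of which 25.4% were called and 13.4% were called higher. let-7e-5p read 5.90, 6.72, 6.81, 7.12 and 6.63 in B6 controls and 7.42, 7.75, 7.41, 6.96 and 7.48 in D2 controls. Of the D2 controls 4 of 5 lay above every B6 control. let-7e-5p was higher by 0.77 (SE 0.22, adjusted p = 0.0129, limma), by 0.58 with the column names (adjusted p = 0.0579, limma) and by 0.68 without both mice (adjusted p = 0.0315, limma). Its cluster neighbours miR-99b-5p (0.93, SE 0.28, adjusted p = 0.0168, limma) and miR-125a-5p (0.62, SE 0.25, adjusted p = 0.0891, limma) were called in the same direction.

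let-7d-5p read 14.47, 14.10, 14.36, 14.31 and 14.24 in B6 controls, and with the D2 controls given above at 14.48 or more, the strains did not overlap, as 16.7% of all miRNAs did not. It was higher by 0.36 (SE 0.14, adjusted p = 0.0709, limma), by 0.42 with the column names and by 0.13 after quantile normalization, where it lost its call. let-7f-5p had a difference of 0.50 (SE 0.28, adjusted p = 0.251, limma) by the labels and was called by the column names (0.68, adjusted p = 0.0798, limma). All 9 differences were above 0, with a median of 0.34 (all miRNAs -0.05). Scaling to total reads in place of the deposited library size moved all miRNAs up by 0.17 in D2 relative to B6 controls and raised the count to 6 members, whereas quantile normalization lowered it to 1. The family sum differed by 0.20 (SE 0.14), by 0.12 without B6 control mouse 2 and by 0.36 as a share of the reads. Marker sums differed as well: the erythroid list stood at 18.61 in B6 and 18.31 in D2 controls (4 of 5 names measured), and the leukocyte and platelet list at 12.71 and 11.76 (4 of 7), and their part in the result was not tested.

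The mRNAs of let-7 regulation were read from the AGO2-bound mRNA of the BNST (14 pools: 5 control, 5 resilient and 4 susceptible) and from blood of the same 25 mice. The BNST values count mRNA bound to AGO2, where more mRNA and more binding to AGO2 cannot be told apart. Of 15 regulator genes, 15 were measured in the BNST. In resilient pools 2 were higher than in controls and 0 lower, where 17.7% of all genes were called and 8.65% were called higher. Dicer1, the nuclease that cuts the mature strand out of let-7 hairpins, stood at 8.43 ± 0.06 log2 CPM in control pools (SD, n = 5), 8.80 ± 0.13 in resilient (n = 5) and 8.78 ± 0.06 in susceptible pools (n = 4). The AGO2-bound level of Dicer1 rose by 0.37 in resilient (SE 0.08, adjusted p = 0.0292, limma) and, in the susceptible group, by 0.35 (SE 0.08, adjusted p = 0.0316, limma). Lin28b, a blocker of let-7 maturation, stood at 5.33 ± 0.25 in control, 5.85 ± 0.22 in resilient and 5.78 ± 0.13 in susceptible pools, and rose by 0.52 (SE 0.13, adjusted p = 0.0473, limma) and 0.44 (SE 0.14, adjusted p = 0.0742, limma). Lin28a was barely detected (mean -0.08 in control pools), with differences of 0.95 (SE 0.51) and 0.99 (SE 0.54) that were not called.

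In susceptible pools against controls, 4 of 15 regulators were higher and 0 lower (18.9% of all genes called, 9.65% higher). Beside Dicer1 and Lin28b these were Tarbp2, a partner of Dicer (0.32, adjusted p = 0.121, limma), and Xpo5, the exporter of precursor hairpins (0.26, adjusted p = 0.114, limma). None of the 15 was called between the defeated groups (2.14% of all genes), where Dicer1 differed by -0.02 (SE 0.08). The comparisons of both defeated groups share the control pools. Of the host genes of let-7 hairpins, 6 were measured in the BNST and 0 were called in any of the 3 comparisons.

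Of 45 genes listed as let-7 targets, 39 were measured in the BNST. A match to the shared seed (CTACCTC, the sense strand of the longest annotated 3′ UTR) was found in 33 of the 45 and in 9.03% of all 21015 genes with a 3′ UTR. In resilient pools against controls 4 targets were called: Lin28b and Dicer1, which are on both lists, Nr6a1, a nuclear receptor of germ cells and embryos (0.33, adjusted p = 0.116, limma), and Tgfbr1, the type I receptor of TGF-beta, which fell by 0.40 (adjusted p = 0.0641, limma). Lin28b, Dicer1, Nr6a1 and Tgfbr1 were also the 4 called in susceptible pools, with Nr6a1 at 0.28 and Tgfbr1 at -0.30. The medians over the targets were 0.08 and -0.03 (all genes -0.02 and -0.01). Without resilient pool 3, 9 targets were called in resilient pools, and without susceptible pool 1, 8 in susceptible pools. Of all 1494 measured genes with a seed match, 15.06% were called in resilient pools, and of all 13863 with a 3′ UTR 18.25%. Between the defeated groups 1 of 39 targets was called, where 2.14% of all genes were, and this count was 0 without resilient pool 1 or 2 or susceptible pool 2 or 3, and 2 without resilient pool 3 or 4.

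In blood, 12 regulators and 32 targets were measured. In B6 mice, 1 target was called in resilient mice against controls (Cdc34, a ubiquitin-conjugating enzyme, 0.36, SE 0.13, adjusted p = 0.985, limma, 2.11% of all genes called). In susceptible mice 2 targets were called, Thbs1 (0.99, SE 0.37) and Itgb3 (0.84, SE 0.37), both abundant in platelets, and 1 regulator, Hnrnpa1 (-0.41, SE 0.14), each with an adjusted p of 0.968 in limma, and 4.50% of all genes were called. In susceptible against resilient B6 mice and in D2 susceptible mice against D2 controls, 0 of 12 regulators and 0 of 32 targets were called by limma (2.03% and 1.57% of all genes). By the column names 1 target was called in D2 mice, as it was without D2 control mouse 2 or 5 or D2 susceptible mouse 3 or 5. Of the B6 counts, targets in resilient mice came to 0 without resilient mouse 1 and to 2 without control mouse 4 or resilient mouse 5. Targets in susceptible mice came to 1 without control mouse 2 or 5 or susceptible mouse 1 or 3. Against resilient mice it was 1 without resilient mouse 1 or 5 or susceptible mouse 1 or 4. Regulators called in resilient mice came to 1 without control mouse 3 or 4 or resilient mouse 4, and to 2 without resilient mouse 5.

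Between control mice of both strains, 11 of 32 targets and 4 of 12 regulators were called, where 26.4% of all genes were called and 15% were called higher. Of the targets 10 were higher in D2 mice, among them Cdk6 (1.11, adjusted p = 0.000224), Plagl2 (1.07, adjusted p = 0.000236), E2f6 (0.85, adjusted p = 0.00763) and Gatm (1.27, adjusted p = 0.01), all from limma, and the median over the targets was 0.27 (all genes 0.01). Without B6 control mouse 1, 7 targets were called. Of the regulators, Drosha, which starts the cutting of primary transcripts, was higher by 0.83 (adjusted p = 0.0281, limma) and Khsrp, which promotes let-7 processing, by 0.51 (adjusted p = 0.0932, limma). Trim25 (-0.34, adjusted p = 0.00694) and the uridylyl transferase Tut4 (-0.53, adjusted p = 0.0207), which act with LIN28A on let-7 precursors, were lower by limma. Mir99ahg, the host of let-7c-1, was higher by 1.41 (SE 0.36, adjusted p = 0.00708, limma) at a mean of 0.74 log2 CPM, while let-7c-5p differed by 0.17 (SE 0.26).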

How the data were processed

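The authors counted small RNA reads on miRBase miRNAs with the miRDeep2 quantifier (Bowtie 1.1.1, GRCm38) and mRNA reads on Ensembl genes, removed low rows and transformed counts with voom. The deposited values are log2 CPM scaled to an effective library size. Taken back to reads, they were whole within 0.0001 reads. The surrogate variable and cohort corrections of the study are not part of them and were not repeated.

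The whole of each table was fitted with limma 3.58.1 in R 4.3.3, all groups in 1 model, with a mean-variance trend and Benjamini-Hochberg adjustment over all rows. Tests were two-sided. The family sum adds the CPM of all member rows. The tests planned for the sum and for the shares are not given. The fits were tested on simulated data. Sequences were read from RefSeq and matched to the genome with Python 3.11.15.

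Members and lists were chosen with earlier results of these data known. All members were described; sample values were given for called members, for the highest and lowest and for the sum. Of other miRNAs, the 3 most like the family mean and called relatives were named, and of the mRNA lists at most 4 called genes per comparison plus Lin28a and Lin28b.

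Replicate numbers of BNST pools did not pair them (miRNA: 11 same-numbered pairs, r from -0.101 to 0.096; mRNA: 13 pairs, r from -0.172 to 0.14, 2 over 0.1). D2 mice were grouped by their labels, with the groups of the column names and the removal of both conflicting mice as alternatives. Quantile normalization, scaling to total reads, sample weights, no trend, only the compared groups, filters and leaving out each sample were tried as well. Removing both D2 mice, and summing only the higher copy row of let-7a, let-7c and let-7f (resilient against control pools -0.24), were chosen after seeing the data. No 2 libraries were alike within sampling noise. Nothing shows which mice entered a pool, so p-values measure the spread between these pools and mice. The target called between the defeated groups of BNST pools is not reported here.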

Additional observations from a re-analysis of the deposited data

Results flagged for a closer look

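Of 78 sets of 5 samples (a member or the family sum in a group), 4 held a sample far from the other 4 by Dixon's test, about as many as chance flags at 1 in 20. let-7c-5p stood at 5.62 log2 CPM in blood of B6 susceptible mouse 1, with the others between 6.58 and 6.91. In the same mouse let-7j stood at 7.27, with the others between 7.97 and 8.13. let-7i-5p stood at 16.16 in D2 susceptible mouse 5, with the others between 16.74 and 16.92. let-7j stood at 6.30 in D2 control mouse 2, with the others between 7.65 and 7.96, and this mouse is one of those whose label and column name disagree.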

How the results depend on the processing

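Of the main values and counts, recomputed under every alternative other than leaving out 1 sample, 170 stayed within limits, 27 moved, 1 grew and 2 reversed. The difference of the family sum between D2 susceptible and D2 control mice reversed to -0.0913 by the column names and to -0.0305 without both mice of differing names, and that between control strains was 0.3629 as a share of the reads. Members called in susceptible against resilient pools came to 5 with total reads or with the replicate block. The block left the other BNST calls of members at 6 and 0, and the family sum of resilient pools at -0.245. Sample weights called 3, 2 and 2 members in B6 resilient, B6 susceptible and D2 susceptible mice and 2 in the interaction. In D2 mice 2 were called with only the compared groups, with the title prefix as a factor or without both mice. Without both mice these were let-7d-5p and let-7j, and by the column names let-7j was called in place of let-7d-5p. Between strains 1 was called after quantile normalization and 6 with total reads. The interaction gave 2 by the column names and 1 with the prefix, without both mice, after quantile normalization or with total reads. By the column names these were let-7j and let-7f-5p, and without both mice it was let-7j. Because let-7j was added for its values in these data, counts that include it are descriptions. Target counts were 8 with weights (resilient pools), 8 with only the compared groups (susceptible pools), 0 without a trend or with the block (between defeated groups), 0 with weights (B6 susceptible blood) and 3, 2, 1 and 1 in D2 mice (weights, compared groups, column names, without both mice), and weights called 1 regulator in D2 mice. With the prefix 7 targets were called between strains. No title prefix occurs in both strains, so this fit cannot adjust the strain comparison. The cause of these shifts was not tested.

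With 1 sample left out at a time, the family sum ranged from -0.2039 to -0.0159 (susceptible against control pools), 0.041 to 0.2291 (susceptible against resilient pools), 0.0134 to 0.1774 (B6 susceptible blood), -0.2213 to -0.0502 (B6 susceptible against resilient blood), 0.1164 to 0.2805 (strains) and from -0.0304 to 0.1233 (D2, below 0 without control mouse 2 or, at -0.0248, without susceptible mouse 3). Members called ranged from 0 to 1 (susceptible against control pools), 2 to 7 (susceptible against resilient pools), 0 to 3 and 0 to 2 (B6 resilient and susceptible blood), 1 to 2 (D2) and 0 to 2 (interaction). Targets called ranged from 3 to 9, 3 to 8 and 0 to 2 in the BNST, from 0 to 2, 1 to 3 and 0 to 1 in B6 blood, from 0 to 1 in D2 blood and from 7 to 13 between strains, and regulators from 0 to 2 in B6 resilient blood.

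With 3 susceptible pools, intervals were wide, and no member passed adjustment in that group. The cohort of each pool was not used here.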
